A study of Bos taurus with 9 samples.

Results

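Pluripotency and epiblast factors, 10 in number and comprising *POU5F1*, *NANOG*, *SOX2*, *SOX15*, *KLF4*, *KLF17*, *PRDM14*, *SALL4*, *LIN28B* and *DPPA3*, were read by their gene symbols from a table of 21512 genes measured in single bovine blastocysts. All 10 were listed, none was at 0 in any embryo, and all 10 passed the threshold for testing, a median above 0.1 TPM, as did 14599 genes in all. TPM is a length-corrected transcript abundance that sums to 1000000 in every library, so that levels of different genes can be set side by side. Read numbers are not kept in TPM. The study's methods give the reads per sample only as a range, so the depth of each library here is unknown.

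The epiblast is the part of the inner cell mass (ICM) from which the body of the embryo forms, beside the hypoblast and the outer trophectoderm (TE). Its undifferentiated state is held by transcription factors that bind one another's regulatory regions, with *POU5F1* (OCT4), *NANOG* and *SOX2* at the centre. In cattle SOX2 protein becomes restricted to the ICM by the blastocyst stage, whereas OCT4 protein persists in the TE for longer than in the mouse.

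The study compared wild-type (WT) embryos with *TEAD4* knockout (KO) embryos at day 8 (D8) after fertilization, to learn which transcripts change when this Hippo pathway transcription factor is missing. Each of the 5 WT and 4 KO libraries came from 1 individual *in vitro* produced blastocyst, holding ICM and TE cells together. All oocytes came from slaughterhouse ovaries and were fertilized with sperm of a single bull. By the study's methods WT embryos received *Cas9* mRNA alone and KO embryos *Cas9* mRNA with a guide RNA against the fourth exon of *TEAD4*, and KO embryos carried frame-disrupting alleles only. Neither sex nor batch of the embryos is given. The libraries are named WT_1 to WT_5 and TE_1 to TE_4, where TE in a library name stands for a *TEAD4* KO embryo. Replicates here are separate embryos.

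*TEAD4* itself was at 18.0 to 54.3 TPM in WT and at 12.5 to 42.8 TPM in KO libraries. The transcript level overlapped between genotypes (log2 fold change −0.51, standard error 0.42, limma adjusted p = 0.947), and TPM does not show which transcripts carry an indel. The 11 TE markers examined summed to between 4463 TPM in WT_4 and 20161.5 TPM in WT_1, with KO libraries between 7140 and 14396.6 TPM. *KRT8* and *KRT18* made up most of these sums, at 11971.6 and 5631 TPM in WT_1 and at 2721 and 1108 TPM in WT_4. The 10 hypoblast markers summed to 91.7 to 177 TPM in WT and 56.4 to 174 TPM in KO, with *FOXA2* at 0 in most libraries. *GATA6* was the largest part of these sums, at 77.6 to 93.6 TPM in WT and 29.3 to 146 TPM in KO. WT_1 stood apart in a list of 10 oocyte genes, at 62.4 TPM against 8.12 to 19.5 TPM in other WT and 3.53 to 11.5 TPM in KO libraries. *OOSP2* alone made up 37.5 of the 62.4 TPM there. The 4 genes at 0 in most libraries, *BMP15*, *ZP4*, *H1-8* and *MOS*, were each highest in WT_1. A list of 4 sperm genes was highest in WT_4 (121 TPM) and TE_3 (74.8 TPM). In WT_4 this was *TNP1* at 75.1 and *PRM1* at 45.9 TPM, and in TE_3 mostly *PRM1* at 73.1 TPM with *TNP1* at 1.69 TPM. *ODF1* was at 0 in 9 libraries and *AKAP4* in 8. A list of 10 cumulus cell genes summed to 77.1 to 266 TPM in WT and 9.002 to 128 TPM in KO, highest in WT_1, but *CYP11A1* alone made up 247 of the 266 TPM there, and *PTX3*, *TNFAIP6*, *AMH*, *INHA* and *INHBA* were at 0 in that library. The TE and hypoblast lists are set beside the factors below. The part of the oocyte, sperm and cumulus lists in the results was not tested, and values without the libraries concerned are given below.

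The 10 factors covered a wide range of levels. *POU5F1* was the most abundant, at 1413 TPM on average over the 9 embryos, followed by *DPPA3* at 223.5 and *SOX15* at 112 TPM. Next came *NANOG* at 57.9, *PRDM14* at 39.2, *SOX2* at 34.0 and *KLF4* at 33.0 TPM. The lowest were *SALL4* at 16.1, *KLF17* at 12.3 and *LIN28B* at 3.98 TPM. *POU5F1* was above *DPPA3*, *DPPA3* above *SOX15* and *KLF4* above *SALL4* in 9 of 9 embryos, and *KLF17* was above *LIN28B* in 8 of 9. Between the other neighbours the mean difference in log2(TPM + 1) was smaller than its SD over embryos: *NANOG* was above *PRDM14* in only 5 of 9 embryos, and *SOX2* above *KLF4* in 6 of 9.

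**Figure D1:**
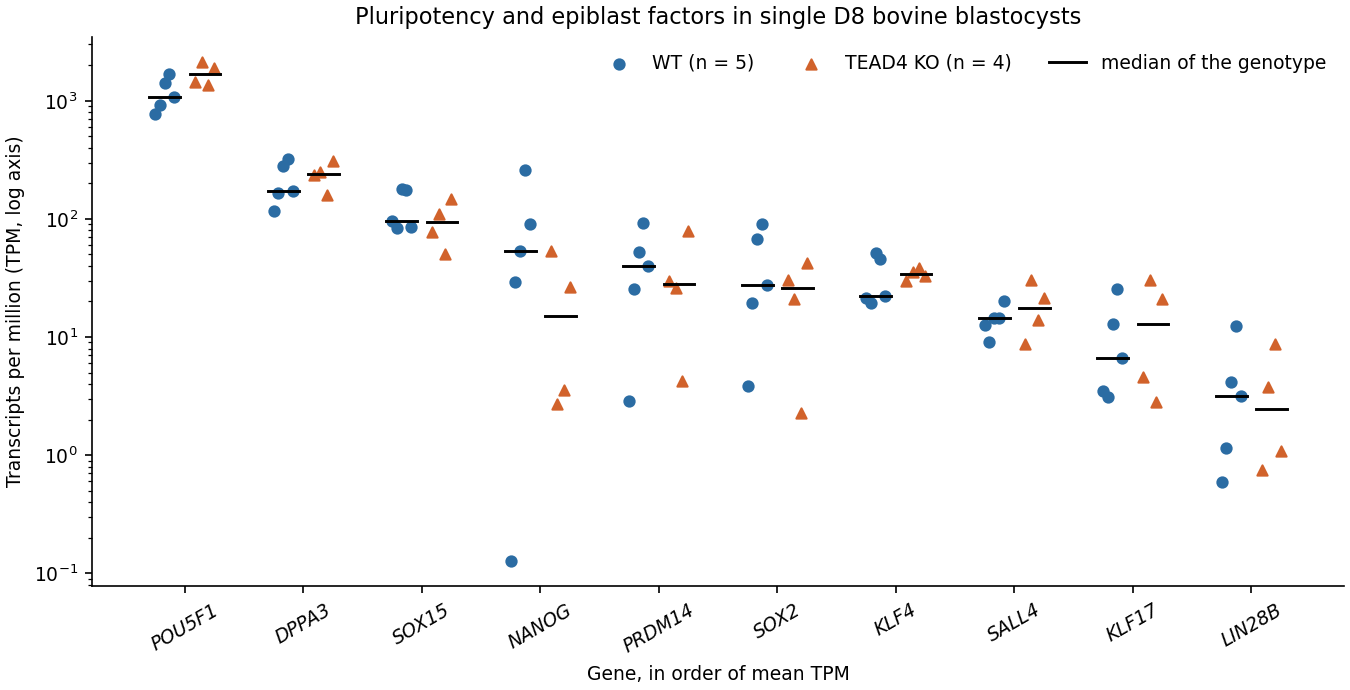
TPM (log axis) of the 10 factors in each WT (circles, n = 5) and *TEAD4* KO (triangles, n = 4) blastocyst, with the median of each genotype as a bar, in order of mean TPM. *POU5F1* stays between 773 and 2142 TPM in all 9 embryos, whereas *NANOG* extends from 0.127 to 262 TPM, and WT and KO values overlap for every factor.

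*POU5F1*, the POU-domain factor at the core of the network, measured 773, 923, 1407, 1693 and 1083 TPM from WT_1 to WT_5. The KO embryos TE_1 to TE_4 measured 1439, 2142, 1352 and 1903 TPM. The genotypes overlapped, with WT_1 and WT_2 lowest and TE_2 and TE_4 above every WT embryo. It averaged 1176 ± 373 TPM across WT embryos (SD, n = 5) and 1709 ± 377 TPM across KO embryos (SD, n = 4). The log2 fold change of TPM + 1 was 0.57 (standard error 0.26, 95% interval −0.0027 to 1.14), and the limma adjusted p was 0.836. An exact permutation of the genotype labels, two-sided, gave p = 0.0794, and 0.0159 is the lowest p that this design can reach. With each embryo left out in turn, the log2 fold change ran from 0.43 without WT_1 (limma unadjusted p = 0.119) to 0.72 without WT_4. Without TE_2 it was 0.45 (limma unadjusted p = 0.133). Because each library held a whole blastocyst, the number of epiblast cells, the RNA per epiblast cell and RNA from other cells cannot be told apart. This also holds for every result below.

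*NANOG*, the homeodomain factor that marks the epiblast, measured 0.127, 29.3, 53.4, 262 and 90.2 TPM from WT_1 to WT_5. The KO embryos TE_1 to TE_4 measured 53.3, 2.70, 3.55 and 26.3 TPM. Its highest and its lowest value were both found in WT embryos, and WT_1, TE_2 and TE_3 lay far below the remaining 6. It averaged 87.0 ± 103 TPM across WT embryos (SD, n = 5) and 21.5 ± 23.9 TPM across KO embryos (SD, n = 4). The log2 fold change of −1.43 (standard error 1.34, 95% interval −4.35 to 1.49) was within the spread between embryos (limma adjusted p = 0.962, exact permutation p = 0.413). It was −2.66 without WT_1 (limma unadjusted p = 0.0123, adjusted p = 0.628) and −0.69 without WT_4.

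*SOX2*, the HMG-box partner of OCT4, measured 3.89, 19.5, 68.2, 90.4 and 27.7 TPM from WT_1 to WT_5. The KO embryos TE_1 to TE_4 measured 30.6, 21.0, 2.26 and 42.4 TPM. WT_1 and TE_3 were the low embryos, 1 of each genotype, and the groups overlapped. It averaged 41.9 ± 36.0 TPM across WT embryos (SD, n = 5) and 24.1 ± 16.95 TPM across KO embryos (SD, n = 4). The log2 fold change was −0.68 (standard error 0.89, 95% interval −2.61 to 1.25, limma adjusted p = 0.982, exact permutation p = 0.540). Its direction rested on TE_3, since it was 0.14 without that embryo and −1.31 without WT_1.

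*PRDM14*, a PR-domain zinc finger protein that represses differentiation signals in pluripotent and germ cells, measured 2.86, 25.5, 52.1, 92.6 and 40.2 TPM from WT_1 to WT_5. The KO embryos TE_1 to TE_4 measured 30.0, 25.8, 4.27 and 79.0 TPM. The same embryos as for *SOX2*, WT_1 and TE_3, were lowest, and WT_4 was highest. It averaged 42.7 ± 33.4 TPM across WT embryos (SD, n = 5) and 34.8 ± 31.6 TPM across KO embryos (SD, n = 4). The fold change on the log2 scale was −0.26 (standard error 0.90, 95% interval −2.22 to 1.70, limma adjusted p = 0.992). It was −0.99 without WT_1, 0.48 without TE_3 and 0.16 without WT_4, so no direction was held.

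The Krüppel-like factors *KLF4* and *KLF17* are zinc finger activators linked to the naive, early state of pluripotency. *KLF4* measured 21.3, 19.2, 51.4, 45.7 and 22.5 TPM from WT_1 to WT_5, and 29.7, 35.4, 38.5 and 33.0 TPM from TE_1 to TE_4. All 4 KO values lay inside the WT range, with an SD of 3.72 TPM (n = 4) against 15.3 TPM (n = 5) in WT. *KLF17* measured 3.51, 3.09, 12.9, 25.5 and 6.71 TPM from WT_1 to WT_5, and 4.63, 30.2, 2.83 and 21.0 TPM from TE_1 to TE_4. *KLF17* was high in WT_4, TE_2 and TE_4 and low in the other KO embryos, so the genotypes overlapped. The log2 fold changes were 0.20 (standard error 0.33) for *KLF4* and 0.33 (standard error 0.71) for *KLF17*, with limma adjusted p of 0.982 and 0.983. That of *KLF17* was −0.17 without TE_2 and 0.84 without TE_3.

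*SOX15*, an HMG-box relative of *SOX2*, measured 95.9, 83.7, 180.3, 174 and 85.1 TPM from WT_1 to WT_5, and 76.9, 111, 50.5 and 148 TPM from TE_1 to TE_4. WT_3 and WT_4 were highest, and TE_1 and TE_3 fell below the lowest WT embryo. *SALL4*, a zinc finger partner of OCT4 and NANOG, measured 12.6, 9.12, 14.5, 14.5 and 20.0 TPM from WT_1 to WT_5, and 8.77, 30.2, 13.8 and 21.6 TPM from TE_1 to TE_4. For *SALL4* TE_2 and TE_4 lay above the WT range and TE_1 below it. The log2 fold changes were −0.38 (standard error 0.36) for *SOX15* and 0.28 (standard error 0.37) for *SALL4*, with limma adjusted p of 0.962 and 0.982.

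*DPPA3* (STELLA), a maternal factor that protects DNA methylation in the zygote, measured 117, 165, 282.7, 321 and 171 TPM from WT_1 to WT_5. The KO embryos TE_1 to TE_4 measured 233, 249, 161 and 312 TPM. All KO values lay within the WT range (log2 fold change 0.23, standard error 0.31, limma adjusted p = 0.982). *LIN28B*, an RNA-binding protein that blocks let-7 microRNA maturation, measured 0.591, 1.14, 4.16, 12.4 and 3.14 TPM from WT_1 to WT_5, and 0.747, 3.79, 8.71 and 1.09 TPM from TE_1 to TE_4. WT_4 and TE_3 were its high embryos, so TE_3 did not take the low place it held for *SOX2* and *PRDM14*. The log2 fold change of *LIN28B* was −0.13 (standard error 0.65, limma adjusted p = 0.994).

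**Figure D2:**
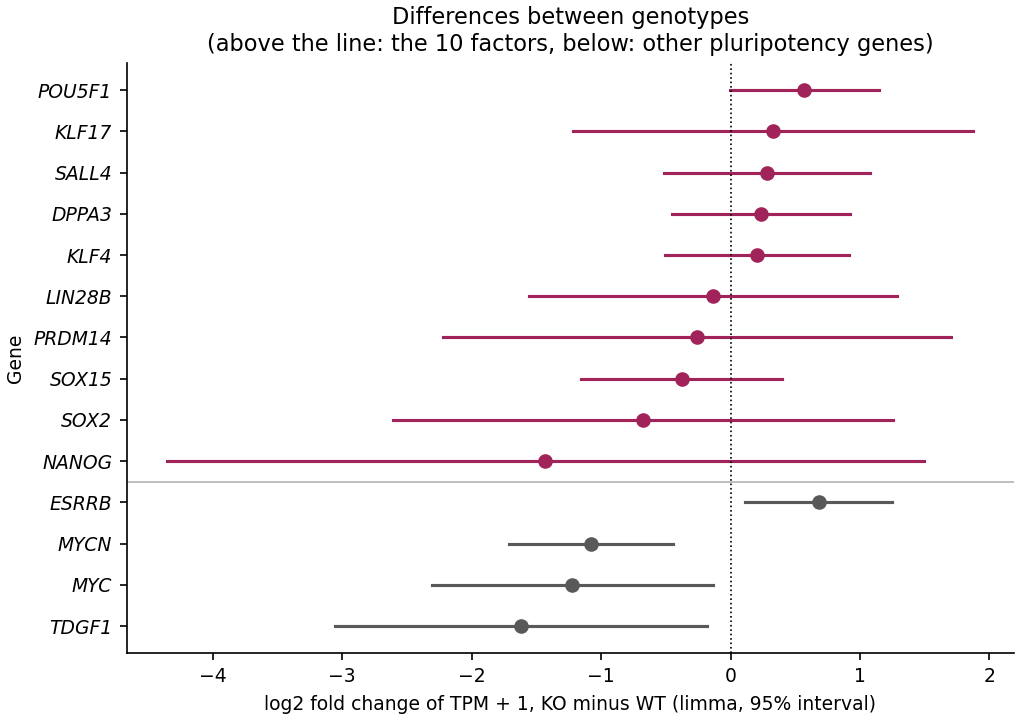
Log2 fold change of TPM + 1, KO minus WT, with its 95% interval from limma, for the 10 factors (above the line) and for 4 other pluripotency genes (below it). The interval of every factor includes 0, from −4.35 to 1.49 for *NANOG* and from −0.0027 to 1.14 for *POU5F1*. *MYCN*, *MYC*, *TDGF1* and *ESRRB* are shown because, of 32 other pluripotency genes tested, they had an unadjusted limma p under 0.05. Their intervals lie on 1 side of 0 through that choice.

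Across the 10 factors, 0 were called changed (limma adjusted p-value under 0.05 and absolute log2 fold change above 1), against 3 of the 14599 genes tested (0.0205%). The study's own count test, with its threshold set on shrunken fold changes, called more genes, so the 3 describe this fit only. At an unadjusted p-value under 0.05 the number of factors was also 0 in this fit, against 5.90% of all genes, 2.07% higher and 3.83% lower in KO. *POU5F1* lay close to that threshold and came under it in 8 of 16 alternatives, with limma unadjusted p from 0.015 to 0.133 over the 16. The 8 were a pseudocount of 0.1 TPM, a median above 1 TPM, size factors, array weights, or leaving out WT_3, WT_4, TE_1 or TE_3. *NANOG* came under it without WT_1 (limma unadjusted p = 0.0123, adjusted p = 0.628). None had WT and KO values that did not overlap, against 2.03% of all genes, 0.801% higher and 1.23% lower in KO. Of the 10 factors 5 were higher and 5 lower in KO, with a median log2 fold change of 0.035 against −0.046 over all genes tested. None was called under any of 16 alternatives, which included leaving out each embryo in turn. The intervals of *NANOG*, *SOX2* and *PRDM14* span several log2 units, so a difference of several fold in either direction was not detectable with these embryos.

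The factors differed widely in their spread between embryos. This was measured as the residual SD of log2(TPM + 1) within genotype and set beside the SD that limma's trend gives for genes of the same level. *NANOG* had a residual SD of 2.57, 5.19 times the trend, and only 21 of 14599 genes (0.144%) had a larger one. *PRDM14* followed with 1.70 (3.57 times the trend, 109 genes larger), *SOX2* with 1.67 (3.41 times, 121 genes larger), *KLF17* with 1.29 (2.24 times) and *LIN28B* with 1.18 (2.09 times). These 5 were above the 95th percentile of all genes, 1.06.

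In contrast, *SOX15* had a residual SD of 0.60, *SALL4* of 0.56, *DPPA3* of 0.52, *KLF4* of 0.50 and *POU5F1* of 0.40, which were 1.06 to 1.49 times the trend. The median over the 10 factors was 0.89 against 0.467 over all genes. *NANOG* ranged 2063-fold from its lowest to its highest embryo, *SOX2* 40.1-fold, *PRDM14* 32.4-fold and *POU5F1* 2.77-fold. The WT_1 value of *NANOG* carried much of its spread: without WT_1 the residual SD was 1.64, and 130 of 14733 genes (0.882%) were larger. Without WT_1 that of *SOX2* was 1.39 and that of *PRDM14* 1.27, with 1.59% and 2.25% of genes larger. Without WT_4 they were 2.43 for *NANOG*, 1.63 for *SOX2* and 1.67 for *PRDM14*. In KO embryos alone *NANOG* ranged 19.7-fold, *SOX2* 18.8-fold and *PRDM14* 18.5-fold.

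**Figure D3:**
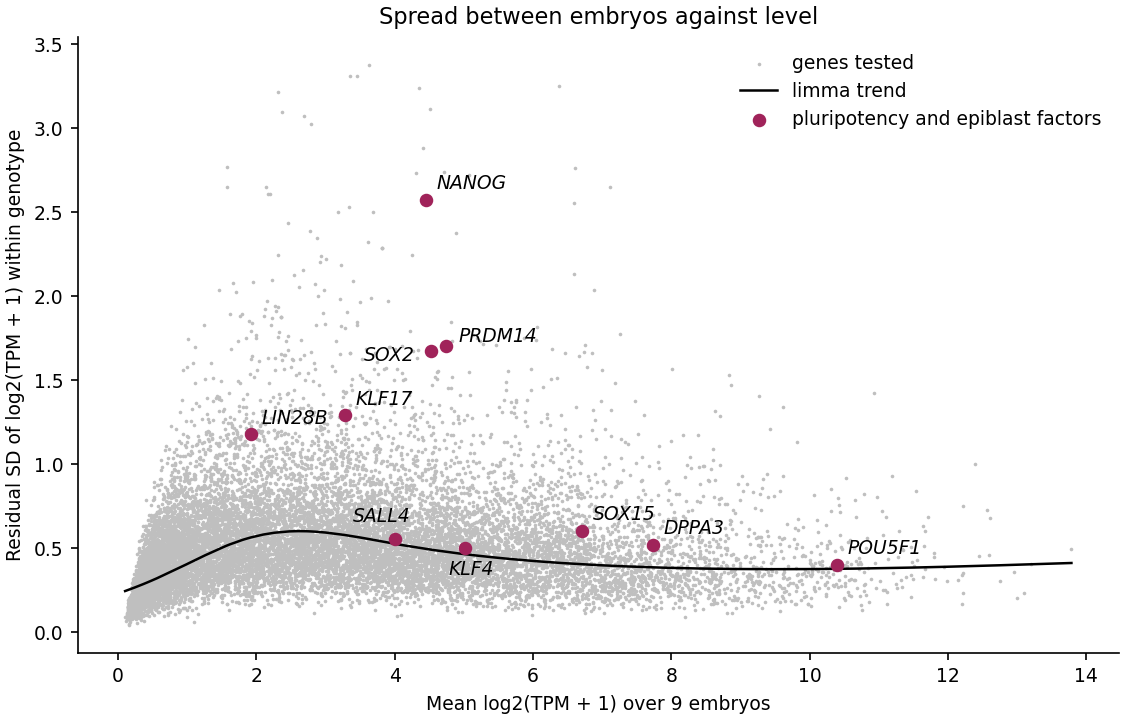
Residual SD of log2(TPM + 1) within genotype (vertical axis) against mean log2(TPM + 1) over the 9 embryos (horizontal axis) for the 14599 genes tested (grey), with limma's trend as a line and the 10 factors in colour. *NANOG* (2.57), *PRDM14* (1.70) and *SOX2* (1.67) lie far above the trend, *KLF17* and *LIN28B* above it, and *POU5F1* (0.40) and *KLF4* (0.50) close to it.

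The factors tended to be high or low in the same embryos. WT_4 had the highest value of 5 factors (*NANOG*, *SOX2*, *PRDM14*, *LIN28B* and *DPPA3*), and WT_1 the lowest of 5 (*POU5F1*, *NANOG*, *PRDM14*, *LIN28B* and *DPPA3*). TE_2 was highest for *POU5F1*, *KLF17* and *SALL4*, and TE_3 was lowest for *SOX2*, *SOX15* and *KLF17*. The sum of the 10 factors ranged from 1031 TPM in WT_1 to 2731 TPM in WT_4. *POU5F1* made up 69.05% ± 5.11 (SD, n = 5) of that sum in WT and 78.1% ± 4.28 (SD, n = 4) in KO embryos, where only TE_4 lay below the highest WT embryo. The libraries also differed in the number of genes above 0 TPM, which was 14807 in WT_1, 15933 to 16678 in the other WT and 14776 to 15375 in KO libraries, and its part in these patterns was not tested.

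Over the 9 embryos, 44 of the 45 pairs of factors had a positive Pearson's r of log2(TPM + 1), with a median of 0.491. Over all pairs of the 14599 genes tested, 57.2% had a positive r in these libraries, with a median of 0.082. The exact permutation p of r, two-sided over 362880 pairings and adjusted by the Benjamini-Hochberg method over the 45 pairs, was under 0.05 for 9 pairs. An r at least as high as the lowest of these 9, 0.794, was reached by 1.81% of all pairs of genes. All 9 held *SOX2*, *PRDM14*, *DPPA3* or *KLF17*, and most of their adjusted p-values were just under the threshold, at 0.049. With WT_1, WT_2, WT_4, TE_1 or TE_3 left out in turn, 0 pairs passed. Values below are therefore also given without the 2 embryos farthest from the median of the first gene.

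*SOX2* and *PRDM14* were the closest pair, with r = 0.962 (exact permutation p = 0.000987, adjusted p = 0.0349, n = 9) and Spearman's rho = 0.95 (exact permutation adjusted p = 0.0159). Without TE_3 and WT_1, the embryos low in both, r was 0.866 (exact permutation p = 0.0258, n = 7). The ratio of *SOX2* to *PRDM14* stayed between 0.529 and 1.36 in all 9 embryos, a 2.57-fold range, while *SOX2* alone ranged 40.1-fold. After centring each genotype on its own mean, r was 0.971.

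*DPPA3* was highest in WT_4 and lowest in WT_1 and TE_3, close to the order of *PRDM14* and *SOX2*. Its r was 0.858 with *PRDM14* (adjusted p = 0.0349), 0.835 with *SOX2* (adjusted p = 0.049) and 0.849 with *POU5F1* (adjusted p = 0.049, exact permutation tests, n = 9), with rho of 0.933, 0.917 and 0.80. The adjusted exact permutation p of rho was 0.0169, 0.0197 and 0.104 in the same order. The r of these pairs without the 2 farthest embryos was 0.731, 0.759 and 0.668 (exact permutation p = 0.0536, 0.0329 and 0.0976, n = 7). The ratio of *POU5F1* to *DPPA3* was between 4.98 and 8.59 in all embryos, a 1.73-fold range, whereas that of *POU5F1* to *SOX2* ran from 18.7 to 599.

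*NANOG* passed the threshold with *PRDM14* and *SOX2*. Its r was 0.840 with *PRDM14* and 0.828 with *SOX2* (adjusted p = 0.049 for both, exact permutation, n = 9), with rho of 0.75 and 0.733, whose adjusted p was 0.108 for both. Without WT_1 and WT_4 these r were 0.635 and 0.667 (exact permutation p = 0.196 and 0.147, n = 7) and no longer passed. With WT_1 alone left out they were 0.725 and 0.754, and with WT_4 alone left out 0.801 and 0.774. TE_2 went against them, with *NANOG* at 2.70 TPM beside *SOX2* at 21.0 and *PRDM14* at 25.8 TPM, and without TE_2 the r rose to 0.907 and 0.889. The ratio of *NANOG* to *SOX2* was 0.0327 in WT_1 and 0.129 in TE_2 and between 0.622 and 3.26 in the other 7 embryos. *NANOG* and *DPPA3*, which lie beside each other in the bovine RefSeq annotation with 0 protein-coding genes between them, had an r of 0.610 (exact permutation p = 0.0882, adjusted p = 0.199, n = 9). After centring, their r was 0.739 (exact permutation p = 0.0403, adjusted p = 0.0954).

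*KLF17* went with *POU5F1* (r = 0.812, rho = 0.80) and *DPPA3* (r = 0.826, rho = 0.833), and *SOX15* with *SOX2* (r = 0.794, rho = 0.733), each with an exact permutation adjusted p of 0.049 for r (n = 9) and none under 0.05 for rho. Without the 2 farthest embryos these r were 0.767, 0.835 and 0.841 (exact permutation p = 0.0444, 0.0262 and 0.031, adjusted p = 0.241 for each). With median-of-ratios size factors the r of *KLF17* was 0.667 with *POU5F1* and 0.680 with *DPPA3*. Neither passed with that scaling (exact permutation adjusted p = 0.134 and 0.127). The r of *SOX2* with *SOX15* was then 0.841 and still passed (exact permutation adjusted p = 0.0414). The adjusted p of these 3 pairs was 0.0547 when the two-sided p was taken from the absolute r. Among the 3 core factors, *POU5F1* had an r of 0.481 with *SOX2* and 0.241 with *NANOG*, which was 0.815 and 0.574 after centring each genotype on its own mean. The only negative r, −0.155, was that of *NANOG* with *SALL4*.

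**Figure D4:**
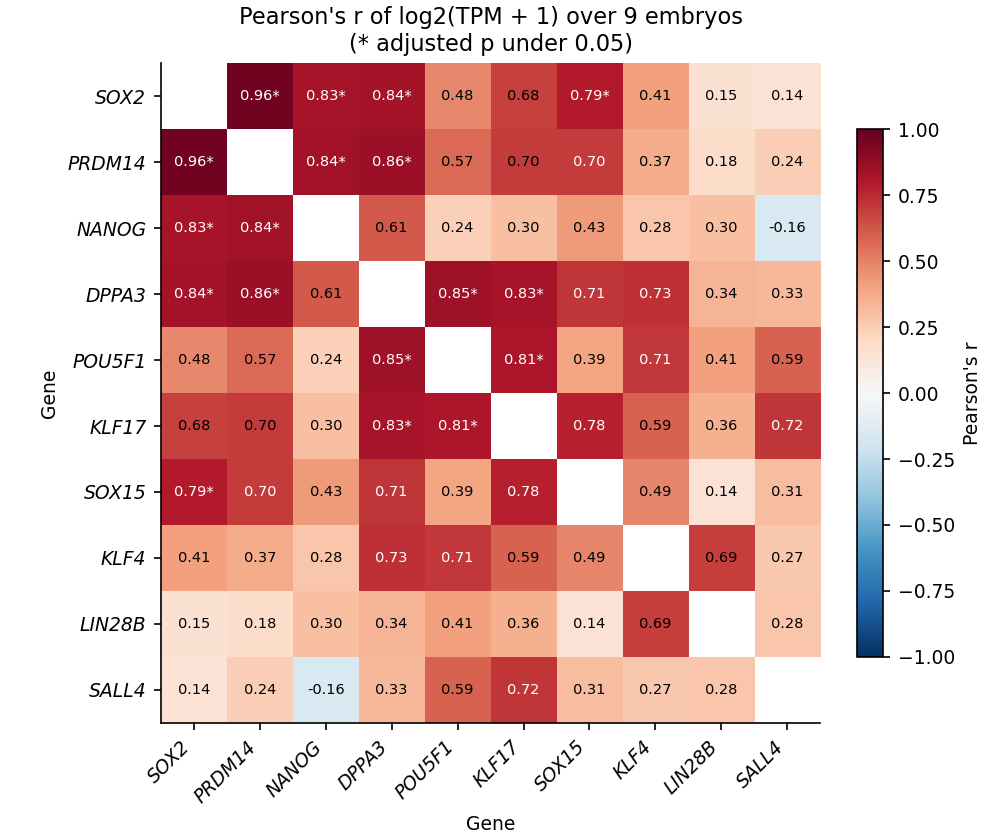
Pearson's r of log2(TPM + 1) over the 9 embryos for each pair of the 10 factors, as colour and number, with a star where the adjusted exact permutation p is under 0.05. The 9 starred pairs hold *SOX2*, *PRDM14*, *DPPA3* or *KLF17*, led by *SOX2* with *PRDM14* (0.96), and 44 of the 45 values are positive.

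**Figure D5:**
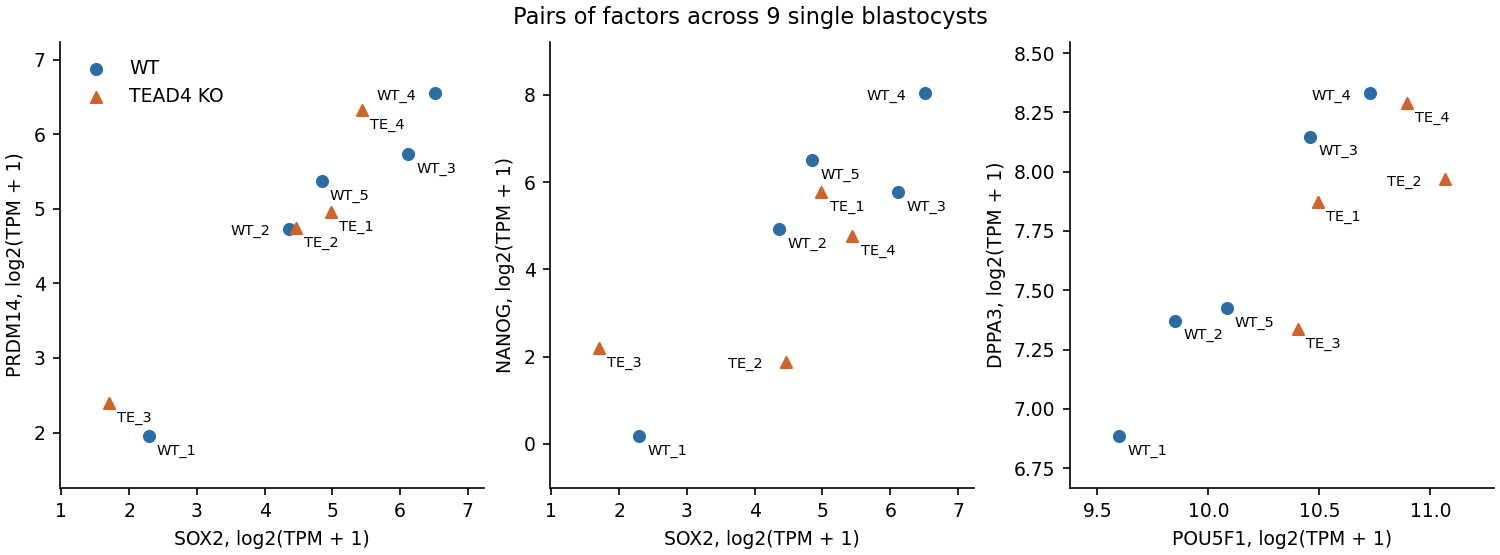
Log2(TPM + 1) of *PRDM14* and of *NANOG* against *SOX2*, and of *DPPA3* against *POU5F1*, 1 point per WT (circles) or KO (triangles) embryo. WT_1 and TE_3 sit apart at the low end of the first panel, and TE_2 lies below the others in the second, where *NANOG* was at 2.70 TPM with *SOX2* at 21.0 TPM.

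The factors were also set beside the TE marker list, scored as the mean z-score of its 11 genes. This was chosen after the values had been seen and covered 20 relations, 10 factors with TE and with hypoblast markers. Of the 10 factors 9 had a negative r with the TE score, led by *DPPA3* (r = −0.833, rho = −0.767, exact permutation p = 0.0044, adjusted p = 0.0757), *PRDM14* (r = −0.746, rho = −0.733, exact permutation p = 0.00757, adjusted p = 0.0757) and *SOX2* (r = −0.703, rho = −0.717, exact permutation p = 0.0199, adjusted p = 0.133). No relation passed after adjustment over the 20, and leaving out TE_3 and WT_1 gave r of −0.765, −0.768 and −0.674 for these 3. With the hypoblast score the largest r was that of *NANOG*, 0.646 (adjusted p = 0.226, exact permutation, n = 9). All values of an embryo come from 1 library and share its total. The factors also went with one another, with a positive r in 44 of 45 pairs, so the 9 negative r are not separate observations. How often other genes had a negative r with the TE score is not given here.

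By likeness over the 9 embryos after centring each genotype, among 11218 genes with a median above 1 TPM, *SOX2* was closest to *FAM43B* (r = 0.993), *OTX2* (0.988) and *SNRNP25* (0.979), with *PRDM14* at rank 9 and *DPPA3* at rank 23. *OTX2*, a homeobox factor of the epiblast, measured 8.67, 28.3, 68.6, 91.3 and 39.1 TPM from WT_1 to WT_5, and 30.5, 20.7, 6.10 and 55.4 TPM from TE_1 to TE_4, lowest in TE_3 and WT_1 like *SOX2*. *NANOG* was closest to *TAC4* (0.981), *MGC127133* (0.973) and *GUCA2A* (0.970), with *PRDM14* at rank 101 and *SOX2* at rank 140. *TAC4*, a tachykinin precursor, was at 0.866 TPM in WT_1, 4.67 in TE_2 and 7.30 in TE_3 and at 12.9 to 53.2 TPM in the other embryos, the same division as *NANOG*. *POU5F1* was closest to *CTBP2* (0.979), *DLL3* (0.977) and *EPG5* (0.976), with *KLF17* at rank 17 and *DPPA3* at rank 39. These are correlations chosen as the highest among many genes and are given as a description.

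A wider list of 39 pluripotency genes held 34 that were in the table, of which 32 were tested and 0 called. It comprised transcription factors, RNA and chromatin regulators, and signalling genes. *L1TD1*, *DPPA5*, *GDF3*, *VENTX* and *ARGFX* were not analysed here, and *NODAL* and *NR0B1* were at 0 in 7 libraries and not tested. Of the 32 genes 4 (12.5%) had an unadjusted p-value under 0.05, 1 higher and 3 lower in KO, against 5.90% of all genes. In KO 22 were lower and 10 higher (68.75% lower against 55.8% of all genes), with a median log2 fold change of −0.28 against −0.046 over all genes. The share of all genes depended on scaling, at 50.8% lower with median-of-ratios size factors and 49.35% with quantile normalization. That of the list was 68.75% with both. With each embryo left out in turn, 19 to 25 genes of the list were lower.

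*MYCN*, a MYC family factor of growing and pluripotent cells, measured 27.6, 28.1, 21.3, 38.8 and 24.9 TPM from WT_1 to WT_5, and 19.6, 8.64, 11.7 and 12.4 TPM from TE_1 to TE_4. It was the only gene of the list without overlap, all KO embryos lying below the lowest WT embryo, as they did for 1.23% of all genes. The log2 fold change was −1.08 (standard error 0.29, limma adjusted p = 0.525, exact permutation p = 0.0159, the lowest possible), and between −1.28 and −0.91 when each embryo was left out. *ESRRB*, an orphan nuclear receptor of naive pluripotency, measured 70.1, 49.1, 66.9, 42.0 and 42.7 TPM from WT_1 to WT_5, and 57.4, 95.9, 103.7 and 93.4 TPM from TE_1 to TE_4. TE_2, TE_3 and TE_4 were above every WT embryo and TE_1 was not (log2 fold change 0.68, standard error 0.26, limma adjusted p = 0.764, exact permutation p = 0.0476).

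*MYC* averaged 12.3 ± 4.95 TPM across WT embryos (SD, n = 5) and 5.41 ± 3.29 TPM across KO embryos (SD, n = 4; log2 fold change −1.22, standard error 0.50, limma adjusted p = 0.784), and −0.68 without TE_4, where it was at 0.738 TPM. *TDGF1*, the Nodal co-receptor CRIPTO, measured 8.76, 2.94, 2.32, 14.3 and 29.4 TPM from WT_1 to WT_5, and 5.17, 0.793, 3.05 and 0.660 TPM from TE_1 to TE_4. Its WT and KO values overlapped (log2 fold change −1.62, standard error 0.66, limma adjusted p = 0.784). The most abundant genes of the list were *ZFP42* (REX1) at 454 TPM and *KLF5* at 173 TPM among transcription factors, *UTF1* at 245 and *DPPA2* at 171 TPM among RNA and chromatin regulators, and *FURIN* at 12.6 and *TDGF1* at 7.49 TPM among signalling genes. *ZFP42* was at 324.5 to 509.8 TPM in WT, but at 883 and 718 TPM in TE_2 and TE_4 and at 163 and 153 TPM in TE_1 and TE_3, so KO embryos lay on either side of the WT range. *KLF5* divided the KO embryos in the same way, at 235.5 and 235.4 TPM in TE_2 and TE_4 and at 99.2 and 99.1 TPM in TE_1 and TE_3. The division was not limited to pluripotency genes. Of 12 housekeeping genes examined, *SDHA* was at 346 and 328 TPM in TE_2 and TE_4 and at 164 and 130 TPM in TE_1 and TE_3. *TBP*, *HPRT1*, *YWHAZ*, *UBB* and *EEF1A1* were also higher in both TE_2 and TE_4 than in TE_1 and TE_3. *ACTB* was not divided so, at 10123.6 and 7413 TPM in TE_2 and TE_4 and at 6015 and 9496 TPM in TE_1 and TE_3. Neither were *GAPDH*, *PPIA*, *RPLP0*, *RPS18* and *B2M*. Of the 10 factors, *POU5F1*, *DPPA3*, *SOX15*, *SALL4* and *KLF17* divided the KO embryos in this way. *NANOG*, *SOX2*, *PRDM14*, *KLF4* and *LIN28B* did not. The part of this division in the co-variation was not tested.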

How the data were processed

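Reads of 9 single-embryo libraries were pseudoaligned and normalized by the authors, and the deposited table holds TPM per gene. FastQC, fastp and kallisto are named in the submitters' processing notes; versions, annotation and genome build are not given in the sources used here, so no coordinates are printed. Labels and paper describe different extraction, library kits and sequencers. All 9 columns were used and assigned to WT or KO by name. Libraries correlated at r = 0.913 to 0.984 and none were identical.

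Genes with a median above 0.1 TPM were fitted with limma 3.58.1 (R 4.3.3, trend) on log2(TPM + 1), adjusted by Benjamini-Hochberg over 14599 genes. A pseudocount of 1 TPM understates fold changes of low genes. The authors' count test could not be used on TPM. Two-sided exact permutation p-values are double the smaller tail (Python 3.11.15, scipy 1.17.1). Scripts were tested on simulated data. Named genes were the 10 factors, *TEAD4*, wider-list genes with unadjusted p under 0.05, without overlap or with the 2 highest means, and the 3 genes most like *POU5F1*, *NANOG* and *SOX2*. *ZFP42*, *KLF5*, *SDHA* and *ACTB* values by embryo and the division of KO embryos described with them were picked after values were seen. So were the single genes named from the marker lists and the marker relations. Members and lists were chosen with earlier results of these data known.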

Additional observations from a re-analysis of the deposited data

How the results depend on the processing

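No factor was called under any alternative. The number of genes called among all was 3, and it was 8 with a pseudocount of 0.1 TPM, 8 with a median above 1 TPM, 5 with median-of-ratios size factors, 6 with quantile normalization, 5 without trend and 0 to 10 when each embryo was left out. In the wider list the number with an unadjusted p under 0.05 was 4, 2 with quantile normalization and 1 to 5 with an embryo left out. Directions turned when an embryo was left out: the log2 fold change ranged from −1.31 to 0.14 for *SOX2*, from −0.99 to 0.48 for *PRDM14*, from −0.17 to 0.84 for *KLF17* and from −0.61 to 0.31 for *LIN28B*. Without WT_1 and TE_3 together, an alternative chosen after seeing the data, *NANOG* was at −2.17, *SOX2* at −0.50 and *PRDM14* at −0.25. The median residual SD was 1.02 with a pseudocount of 0.1 TPM and 0.79 to 0.94 with an embryo left out. The number of pairs called, 9, was 2 with a pseudocount of 0.1 TPM, 7 with size factors, 5 after centring, 3 with Spearman's rho, 0 without the 2 farthest embryos, 0 without WT_1 and TE_3 and 0 to 6 with an embryo left out. It was 6 when the two-sided p was the share of pairings with an absolute r at least as large; both versions were computed before the doubled tail was kept. The cause of these changes was not tested, beyond the smaller number of embryos where some were left out. No paired analysis was possible because each column is a separate embryo, sample titles share no replicate numbers, and the numbers in column names are not described as pairs. With TPM alone the precision of low values, such as *LIN28B* or *NANOG* in WT_1, is unknown.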
